A study of Mus musculus with 3 samples.

Results

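Polycomb and Trithorax proteins are chromatin regulators, and 43 of their genes were followed here through Runx1 chromatin immunoprecipitation sequencing (ChIP-seq) of mouse spinal cord. The set held 27 Polycomb and 16 Trithorax genes, out of 21887 coding genes of the RefSeq annotation. It was fixed by name: every region that the authors' annotated tables assigned to one of the 43 symbols was taken. There were 59 such regions, 4 in replicate 1, 6 in replicate 2 and 49 in replicate 3.

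Polycomb repressive complex 2 (PRC2) methylates histone H3 at lysine 27, a mark of silenced genes. Polycomb repressive complex 1 (PRC1) ubiquitinates histone H2A through its RING enzymes, and in its canonical form a CBX protein reads the lysine 27 mark. Trithorax complexes of the COMPASS family act against them by methylating lysine 4 of histone H3, and the KDM6 enzymes remove methyl groups from lysine 27. Runx1 is a DNA-binding transcription factor best known from blood formation, and in the nervous system it is known from sensory neurons and microglia.

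The samples formed 1 group of 3 replicates, all spinal cord of male C57BL/6J mice aged 8 to 10 weeks. Cords were cross-linked in pools of 5, and about 10 µg of chromatin from 10 cords went into each immunoprecipitation with 9 µg of a rabbit polyclonal antibody against Runx1. The labels gave no treatment or other genotype for these mice and did not say whether replicates shared cords. In replicate 3 the tissue field held the antibody's description, so its tissue was taken from the title. The measurement is bulk tissue, in which binding in few cells and weak binding in many cells cannot be told apart.

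The 3 libraries differed widely in how many regions were called. Replicate 3 gave 13194 regions, replicate 2 gave 1641 and replicate 1 gave 451. The depth of replicates 3 and 2 relative to replicate 1, read from the lowest background of each list, was 1.52 and 1.07. It is a rough value from called regions only, and the part of depth in the counts was not tested. A region's fold is the authors' ratio of stacked fragments at its summit over the local background, and its median over each list was 3.81 in replicate 3, 4.01 in replicate 2 and 4.86 in replicate 1. In replicate 3, regions lay at 10 of 10 oligodendrocyte and 10 of 10 neuron marker genes, 4 of 10 astrocyte, 1 of 10 microglia and 0 of 10 endothelial and mural markers. In replicate 1 those counts were 0, 1, 0, 0 and 0, and in replicate 2 they were 8, 2, 1, 0 and 0. Of all coding genes, 31.5% had a region in replicate 3, 5.17% in replicate 2 and 1.51% in replicate 1. Expression was not measured, so the cell types behind a region were not tested.

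Runx1 regions were assigned to genes of both groups, mostly in the authors' class within 1 kb of a transcript start. Genes of the H3K4 methyltransferases Kmt2a and Setd1a and of the PRC1 subunit Cbx6 had one in every replicate, and all 5 PRC2 accessory genes had one in replicate 3. In replicate 3, 28 of the 43 genes had a region (65.1%, 95% Wilson interval 50.2 to 77.6%), against 31.5% of all coding genes. In replicate 2, 6 of 43 genes had one (14.0%, interval 6.56 to 27.3%), against 5.17% of all coding genes. In replicate 1, 4 of 43 did (9.30%, interval 3.68 to 21.6%), against 1.51% of all coding genes. Regions in at least 2 replicates were found at 7 genes (16.3%, interval 8.12 to 30.0%), against 5.43% of all coding genes. Of these, Cbx6, Kmt2a and Setd1a had a region in all 3 replicates (6.98%), against 0.836% of all coding genes. The count was 6 without replicate 1, 4 without replicate 2 and 3 without replicate 3, where both remaining lists had to hold a region. Where replicate 1 remained, the count could not exceed the 4 genes of its list. Shares of all coding genes were not computed for the counts without a replicate. The genes were chosen with results of these data known, so the shares are given without a test. Of the others, 21 genes had a region in replicate 3 alone and 15 had none in any replicate.

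**Figure D1:**
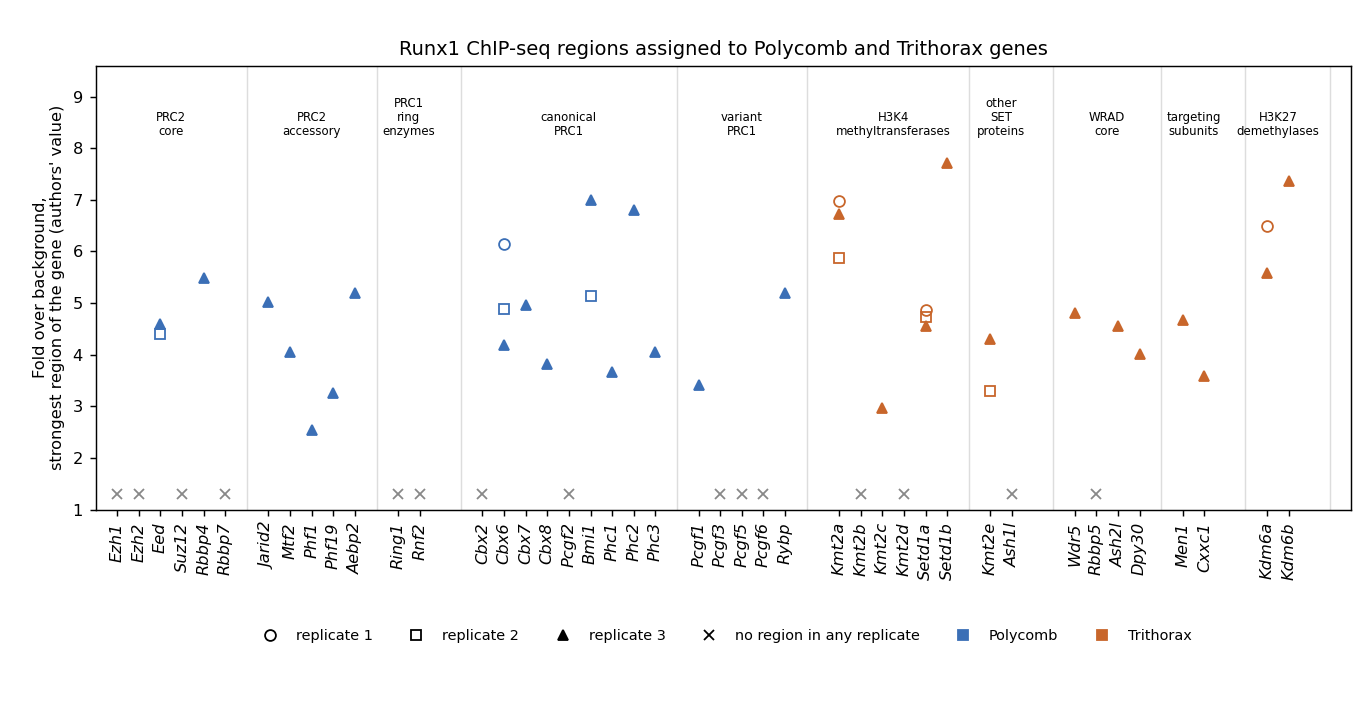
Fold over background of the strongest region of each gene (y axis, authors' value) for the 43 genes by complex (x axis), with 1 symbol per replicate. The Kmt2a values lie between 5.87 and 6.97, and the 15 crosses along the bottom are genes with no assigned region.

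The genes of the set with a promoter window differed from all coding genes in promoter composition. RefSeq promoter windows, 250 bases before to 50 after a start, were matched for 33 of the 43 genes. They covered 24 of 27 Polycomb genes but 9 of 16 Trithorax genes, so the promoter values are mostly from Polycomb genes. Setd1b and Kdm6b, with the highest folds of replicate 3, had no window. CpG-rich windows, with over 50% G and C and a CpG observed-to-expected ratio above 0.6, were found at 30 of the 33 (90.9%) and at 48.1% of all coding genes with a window. Among those 30 genes, 20 had a region in replicate 3 (66.7%), against 51.4% of all 8411 coding genes with such a window. In replicate 2 it was 5 of 30 (16.7%) against 8.81%, and in replicate 1 it was 4 of 30 (13.3%) against 2.65%. In percentage points, the gap to all genes in replicate 3 was smaller among CpG-rich promoters than without that restriction (65.1 against 31.5%). In replicate 1 it was larger than without it (9.30 against 1.51%), with the same 4 genes over a smaller total. In replicate 2 it was similar (14.0 against 5.17%). As a ratio to the share of all genes, the excess was smaller among CpG-rich promoters in each replicate. Gene length also differed, with a median of 28271 bp for the 43 genes and 17169 bp for all coding genes, and its part in the shares was not tested.

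The promoters of the genes whose regions recurred are given here because the later values refer to them. All are RefSeq windows of build GRCm38.p6, written 5′ to 3′ along the gene. They belong to the genes with a promoter-class region in at least 2 replicates, other than Kmt2e, and follow the lowest percentile of fold that each gene's region held in any list. Capitals mark a GC box (GGGCGG), an E-box (CACGTG) or a CCAAT box (CCAAT) on either strand. The letters TGTGGT, a form of the Runx recognition core, would also be in capitals, and none of the 6 windows holds them. Forms of the core with other letters were not searched, so their absence is not shown. The Kmt2a window (chr9:44881240-44881539, minus strand) has 5 GC boxes and 75.7% G and C. The Bmi1 window (chr2:18676768-18677067, plus strand) has 6 GC boxes, some of which overlap, and 1 E-box. The Kdm6a window (chrX:18162325-18162624, plus strand) has 1 GC box and 1 E-box. The Eed window (chr7:89980927-89981226, minus strand) has 1 CCAAT box and 54.7% G and C, the lowest of the 6. The Cbx6 window (chr15:79834284-79834583, minus strand) has 3 GC boxes and 1 E-box. The Setd1a window (chr7:127777139-127777438, plus strand) has none of these motifs.
Kmt2a: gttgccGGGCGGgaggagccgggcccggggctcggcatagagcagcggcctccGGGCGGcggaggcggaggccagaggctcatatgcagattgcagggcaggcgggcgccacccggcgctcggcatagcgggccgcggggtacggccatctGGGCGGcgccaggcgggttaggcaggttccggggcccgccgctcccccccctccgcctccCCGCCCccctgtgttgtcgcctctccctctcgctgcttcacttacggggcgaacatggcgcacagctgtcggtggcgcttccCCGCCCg
Bmi1: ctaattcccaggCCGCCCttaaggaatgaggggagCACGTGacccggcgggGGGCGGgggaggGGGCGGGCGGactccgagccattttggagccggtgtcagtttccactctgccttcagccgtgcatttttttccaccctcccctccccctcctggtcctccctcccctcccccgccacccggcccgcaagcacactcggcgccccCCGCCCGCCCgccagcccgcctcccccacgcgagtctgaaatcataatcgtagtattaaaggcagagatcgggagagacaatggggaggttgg
Kdm6a: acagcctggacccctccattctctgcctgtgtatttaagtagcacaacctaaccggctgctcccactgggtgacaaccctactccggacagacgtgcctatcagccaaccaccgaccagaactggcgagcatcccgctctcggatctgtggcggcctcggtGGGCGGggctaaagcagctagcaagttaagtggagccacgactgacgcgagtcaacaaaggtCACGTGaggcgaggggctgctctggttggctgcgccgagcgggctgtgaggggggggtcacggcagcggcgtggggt
Eed: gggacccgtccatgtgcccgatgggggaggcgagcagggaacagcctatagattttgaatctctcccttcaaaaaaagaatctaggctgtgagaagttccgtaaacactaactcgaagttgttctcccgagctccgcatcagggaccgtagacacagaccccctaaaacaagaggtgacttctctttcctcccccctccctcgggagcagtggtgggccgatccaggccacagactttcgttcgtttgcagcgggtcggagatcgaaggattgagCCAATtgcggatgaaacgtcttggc
Cbx6: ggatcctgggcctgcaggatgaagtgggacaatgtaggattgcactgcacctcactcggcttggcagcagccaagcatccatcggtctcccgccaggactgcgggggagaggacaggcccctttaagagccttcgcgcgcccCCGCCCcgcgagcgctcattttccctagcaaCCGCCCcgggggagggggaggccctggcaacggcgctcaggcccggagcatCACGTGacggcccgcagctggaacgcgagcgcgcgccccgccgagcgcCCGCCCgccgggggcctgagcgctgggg
Setd1a: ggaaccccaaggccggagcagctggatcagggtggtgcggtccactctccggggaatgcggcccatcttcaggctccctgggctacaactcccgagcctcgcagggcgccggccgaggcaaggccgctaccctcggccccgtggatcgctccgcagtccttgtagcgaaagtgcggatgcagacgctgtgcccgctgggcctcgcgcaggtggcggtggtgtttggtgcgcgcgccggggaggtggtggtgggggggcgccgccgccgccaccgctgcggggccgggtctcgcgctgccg

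Kmt2a (ENSMUSG00000002028), which encodes an H3K4 methyltransferase of the MLL type, ranked highest of the 7 recurring genes by the lowest percentile its region held in any list. In replicates 1, 2 and 3 its fold was 6.97, 5.87 and 6.72, resting on 27, 26 and 85 stacked fragments at the summit. The 95% Poisson intervals of the folds, which cover counting error only, were 4.68 to 10.03, 3.91 to 8.49 and 5.39 to 8.29, and all 3 overlap. The region ranked at percentile 86.7 of its list in replicate 1, 93.7 in replicate 2 and 93.9 in replicate 3. All 3 summits lay inside the printed window upstream of its start site, at −179, −175 and −187 bases from it. The widest call, in replicate 3, was chr9:44881287-44882135, in the promoter class within 1 kb.

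Cbx6 (ENSMUSG00000089715), a chromodomain subunit of canonical PRC1, was the Polycomb gene with a region in every replicate. In replicates 1, 2 and 3 its fold was 6.15, 4.89 and 4.20, on 36, 28 and 40 stacked fragments. The 3 counting intervals overlap, running from 4.36 to 8.45, 3.31 to 6.99 and 3.03 to 5.68. The summits sat close to the start site, at −1, −38 and −21 bases from it. The region of replicate 3 was chr15:79834072-79834640.

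Setd1a (ENSMUSG00000042308), which encodes the catalytic subunit of a COMPASS complex, had similar values in all 3 lists. In replicates 1, 2 and 3 its fold was 4.86, 4.73 and 4.56, on 18, 20 and 38 stacked fragments, and the counting intervals (2.99 to 7.54, 2.98 to 7.18 and 3.26 to 6.22) overlap. The summits of replicates 1 and 3 lay upstream of the start at −316 and −318 bases, and that of replicate 2 lay farther out, at −521. The region of replicate 3, chr7:127776377-127777358, reached over both places.

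Kdm6a (ENSMUSG00000037369), an X-linked H3K27 demethylase, had a region in replicates 1 and 3 and none in replicate 2. It reached fold 6.49 in replicate 1, on 20 stacked fragments, and 5.57 in replicate 3, on 22, with overlapping counting intervals of 4.09 to 9.86 and 3.58 to 8.31. The summit of replicate 1 lay at −14 bases from the start site of the printed window, inside that window. In replicate 3 the strongest of 5 summits lay 950 bases after that start, within a region of 2054 bp at chrX:18162140-18164193. The regions thus overlapped while their strongest points did not coincide.

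Bmi1 (ENSMUSG00000026739), a PCGF subunit of canonical PRC1, had a region in replicates 2 and 3 at almost the same place. The folds were 5.14 (counting interval 3.37 to 7.55) and 7.0 (5.03 to 9.50), on 24 and 39 stacked fragments. The summits lay at −74 and −46 bases, and the whole printed window was inside both regions. Replicate 3 held a further Bmi1 region downstream, chr2:18677833-18678619, of fold 4.85.

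Eed (ENSMUSG00000030619), the PRC2 core subunit that binds trimethylated lysine 27, was called at fold 4.41 in replicate 2 and at 4.59 in replicate 3, on 19 and 30 stacked fragments. Its summits lay at −178 and −226 bases from the start. Kmt2e (ENSMUSG00000029004), a SET-domain protein of the Trithorax group for which methyltransferase activity has not been established, ranked lowest of the 7, at fold 3.30 in replicate 2 and 4.31 in replicate 3. It ranked at percentile 9.69 of replicate 2 and 65.3 of replicate 3. The region of replicate 3 was chr5:23434953-23436642, and a stronger one of fold 7.73, chr5:23431618-23434329, which covers the RefSeq start of Kmt2e, was assigned by the authors to the lincRNA 5031425E22Rik.

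**Figure D2:**
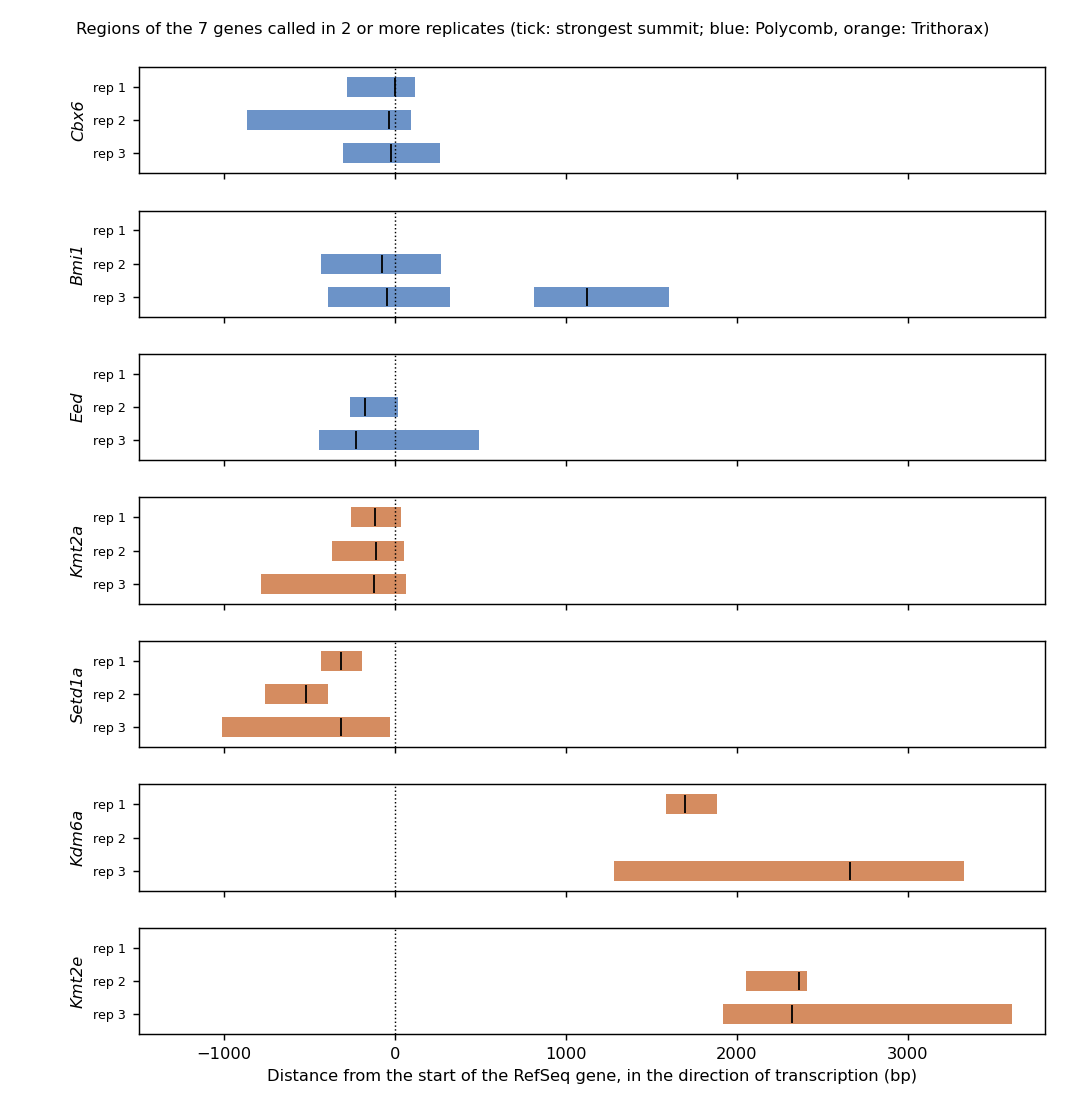
Regions of the 7 genes found in at least 2 replicates, drawn by distance from the RefSeq gene start (x axis, bp along the gene), with 1 row per replicate and a tick at the strongest summit. The Kmt2a summits line up within 12 bp, and the Kdm6a summits of replicates 1 and 3 lie 964 bp apart.

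The PRC2 genes are given by role, and differences between roles were not tested. Of the 6 core genes, 2 had a region in replicate 3 (33.3%, Wilson interval 9.68 to 70.0%), against 31.5% of all coding genes. These were Eed and Rbbp4, while the catalytic genes Ezh1 and Ezh2, the scaffold Suz12 and the histone-binding Rbbp7 had none in any replicate. Rbbp4, a histone-binding WD40 protein shared with other complexes, had a region of fold 5.49 and 46 stacked fragments at chr4:129335089-129336231. That region also lay within 1 kb of the start of the neighbouring gene Zbtb8os, and a weaker one of fold 2.94 lay just inside the gene. All 5 PRC2 accessory genes had a region in replicate 3 (Wilson interval from 56.6%), against the same 31.5%. In replicates 2 and 1 none of the 5 had one, against 5.17 and 1.51% of all coding genes. Aebp2, a zinc-finger cofactor, had 4 regions with folds of 2.94 to 5.19. Jarid2, which helps bring PRC2 to its targets, had 4 regions with folds of 3.91 to 5.02. The strongest Aebp2 region was chr6:140629219-140629853 and the strongest Jarid2 region was chr13:44730614-44731608. The Polycomb-like genes Mtf2, Phf19 and Phf1 had 1 region each, of fold 4.05, 3.27 and 2.54. The Phf1 region had the lowest fold of the 49 and ranked at percentile 1.31.

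The PRC1 genes are given by role, beside the 31.5% of all coding genes with a region in replicate 3; the Wilson intervals of the 3 kinds overlap. Neither RING enzyme gene, Ring1 or Rnf2, had a region in any replicate (0 of 2, Wilson interval up to 65.8%). Of 9 canonical PRC1 genes, 7 had a region in replicate 3 (77.8%, interval 45.3 to 93.7%) and Cbx2 and Pcgf2 had none. Phc2, a polyhomeotic subunit, had 6 regions, the most of the 43 genes, with folds of 3.04 to 6.81. Its strongest was intronic, chr4:128733726-128734727 in intron 9 of 14 of the authors' transcript, with 58 stacked fragments, and its 3 regions within 1 kb of a start had folds of 3.47, 4.17 and 3.04. Cbx7 had 2 regions, both in intron 2 of 6, of fold 4.96 and 3.66. Cbx8 had a promoter region of fold 3.42 and 2 distal intergenic regions, at −12124 and −15288 bp from a start in the authors' table, of fold 3.76 and 3.81. The polyhomeotic genes Phc1 and Phc3 had folds of 3.66 and 4.05. Of 5 variant PRC1 genes, 2 had a region (40%, interval 11.8 to 76.9%). Rybp, an adaptor, had a region of fold 5.19 at chr6:100233373-100233808 and Pcgf1 had one of fold 3.41. Pcgf3, Pcgf5 and Pcgf6 had none.

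Among Trithorax genes, 4 of 6 H3K4 methyltransferases had a region in replicate 3 (66.7%, Wilson interval 30.0 to 90.3%), against 31.5% of all coding genes. Setd1b, the other SET1-type methyltransferase, had the highest fold of the 43 genes there, 7.70 on 44 stacked fragments. Its region, chr5:123138275-123142342, was 4068 bp wide with 9 summits and was the widest of the 49. An overlapping region of replicate 2, of fold 4.50, was assigned by the authors to the lincRNA AI480526. Kmt2c had a fold of 2.96, at percentile 12.6 of the list, and a region of fold 5.45 beside it was assigned to the lincRNA 4831440E17Rik. Kmt2b and Kmt2d had no assigned region. Of the 4 WRAD genes, whose products form the core that stimulates these enzymes, 3 had a region (75%, interval 30.1 to 95.4%), against the same 31.5%. Wdr5, Ash2l and Dpy30 had folds of 4.80, 4.56 and 4.00 and Rbbp5 had no assigned region. The targeting subunits Men1 and Cxxc1 had folds of 4.68 and 3.58. Kdm6b, the second H3K27 demethylase, had 5 regions with folds of 3.01 to 7.37. The strongest, chr11:69417369-69419157, rested on 62 stacked fragments and carried the authors' class "downstream", although it lies inside the RefSeq gene body. Ash1l, a methyltransferase of lysine 36, had no assigned region.

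**Figure D3:**
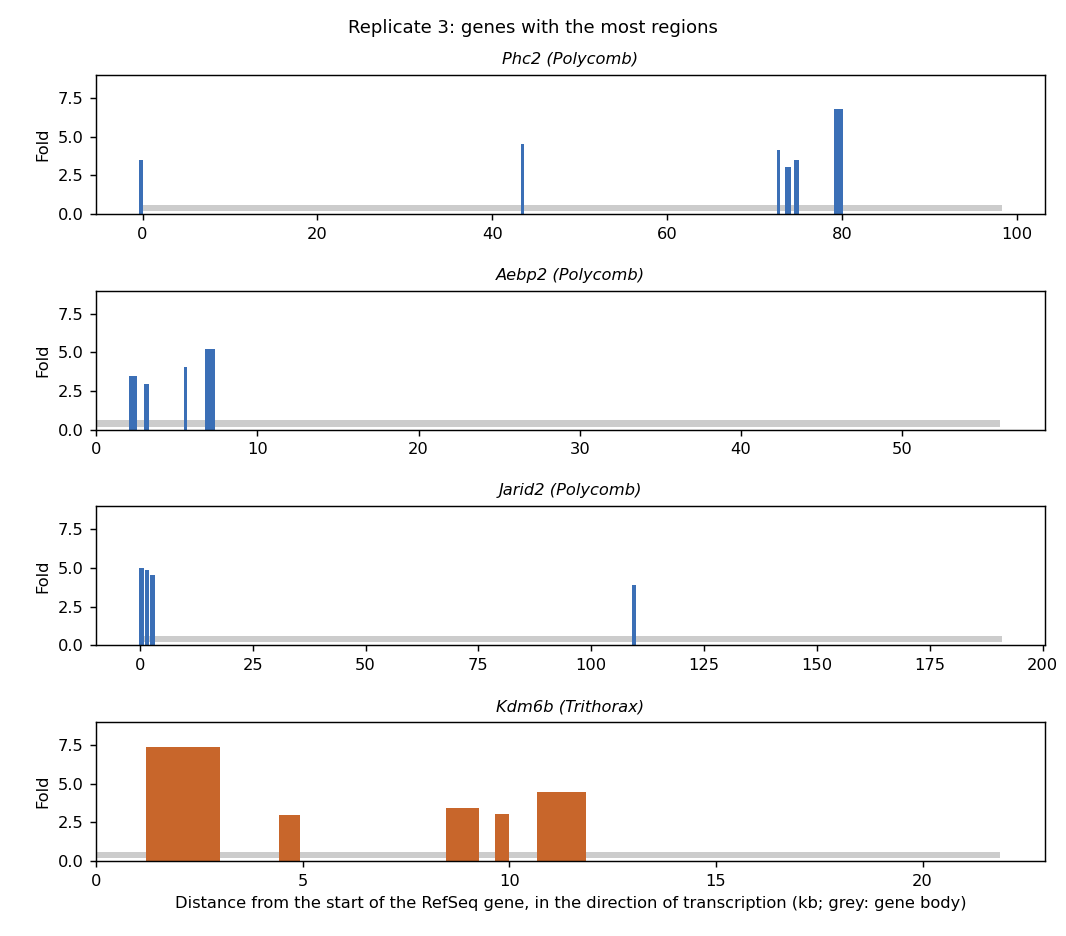
Replicate 3 regions of the genes with the most regions, by distance from the RefSeq gene start (x axis, kb along the gene), with fold as height (y axis). The highest bar of Phc2 is intronic and far from its start, and that of Kdm6b lies within 3 kb of its start.

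The Polycomb and Trithorax genes were compared by the share of genes with a region. In replicate 3, 16 of 27 Polycomb genes (59.3%) and 12 of 16 Trithorax genes (75.0%) had one. In replicate 2 there were 3 of 27 Polycomb genes (11.1%) and 3 of 16 Trithorax genes (18.8%). In replicate 1 there was 1 of 27 Polycomb genes (3.70%) and 3 of 16 Trithorax genes (18.8%). The share was lower for Polycomb in each replicate, by a mean difference of −12.8 percentage points (SD 4.49, n = 3). With each list reduced to 451 regions the direction turned in replicate 2, where 2 of 27 Polycomb genes (7.41%) and 1 of 16 Trithorax genes (6.25%) had one. The exact two-sided sign-flip permutation test over replicates gave p = 0.25, which is the smallest p that 3 replicates allow, and 0.375 after Benjamini-Hochberg adjustment over the 3 comparisons of the groups. Regions of the promoter class within 1 kb were found at 26 of the 43 genes in replicate 3, 6 in replicate 2 and 4 in replicate 1, against 28.4, 4.35 and 1.38% of all coding genes. Over these regions the difference was −12.0 points (SD 3.85, n = 3; exact permutation p = 0.25, adjusted 0.375). The difference rests on few genes, and the Wilson intervals of the 2 groups overlap in every replicate. These intervals treat the chosen genes as independent draws and do not test the difference.

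The difference in fold between the groups lay within the spread between replicates. In replicate 3 the median fold of the strongest region per gene was 4.39 for the 16 Polycomb genes and 4.62 for the 12 Trithorax genes. In replicate 2 the medians were 4.89 for Polycomb and 4.73 for Trithorax, over 3 genes each. In replicate 1 the single Polycomb gene had 6.15 and the 3 Trithorax genes had a median of 6.49. On the log2 scale the Polycomb minus Trithorax differences were −0.07 in replicate 3, 0.05 in replicate 2 and −0.08 in replicate 1. Their mean was −0.03 (SD 0.07, n = 3; exact permutation p = 0.5, adjusted 0.5), smaller than the spread between replicates. The 28 genes together had a median of 4.58 in replicate 3, against 4.04 over all coding genes with a region. A fold of 5 or more was reached by 10 of the 43 genes in replicate 3 (23.3%), against 8.50% of all coding genes. In replicate 2 it was reached by 2 genes (4.65%), against 0.882%, and in replicate 1 by 3 genes (6.98%), against 0.713%.

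**Figure D4:**
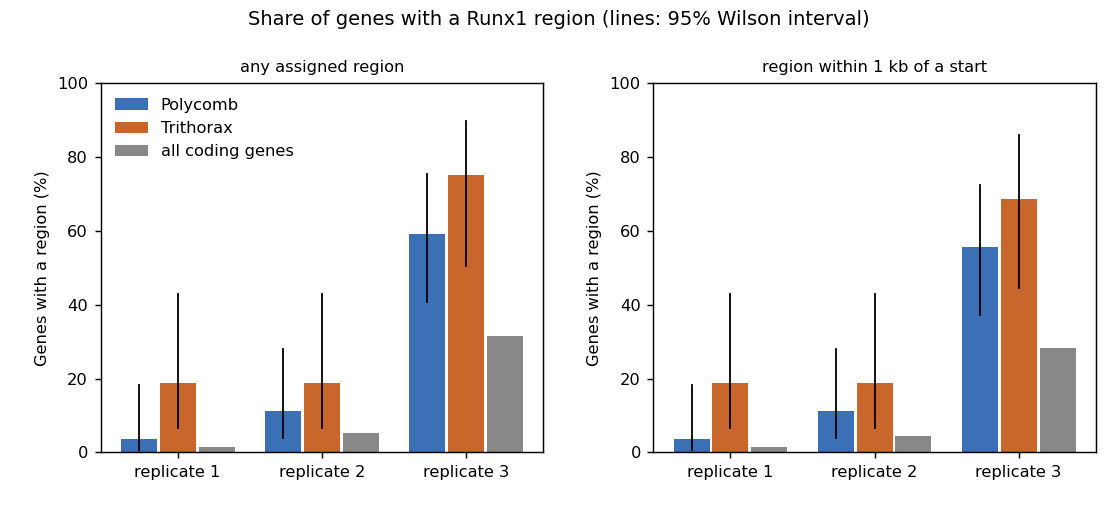
Share of genes with a region (y axis, percent) for Polycomb, Trithorax and all coding genes in each replicate (x axis), with any region at left, regions within 1 kb of a start at right and 95% Wilson intervals as lines. Polycomb lies below Trithorax in each replicate, with overlapping intervals, at 59.3 and 75.0% in replicate 3.

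**Figure D5:**
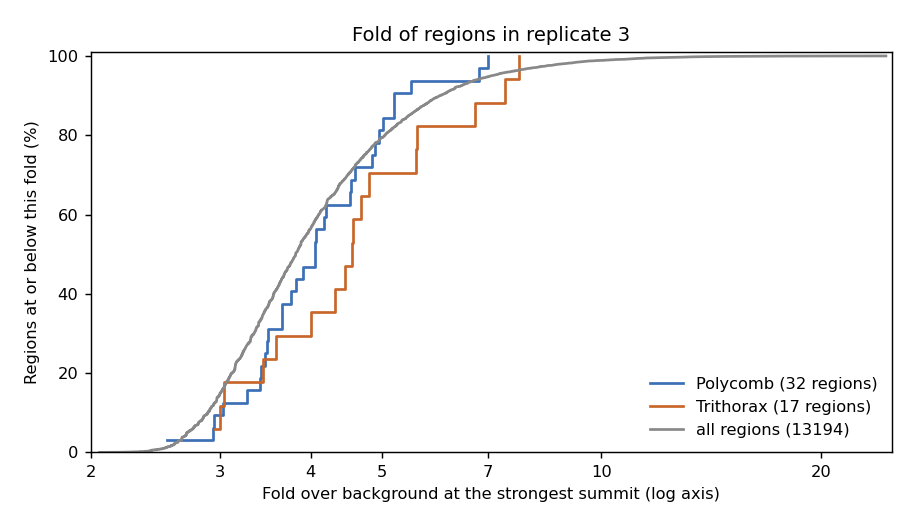
Cumulative percentage of regions (y axis) by fold over background (x axis, log scale) in replicate 3, for 32 Polycomb regions, 17 Trithorax regions and all 13194 regions. The Polycomb and Trithorax curves cross at low fold and end at 7.0 and 7.70, and all regions have a median of 3.81.

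The count for Trithorax depended on how regions were given to genes. The authors assigned each region to 1 gene, so a region near more than 1 gene counts for only 1 of them. When a region within the RefSeq gene body or 1 kb around it was counted, 17 of 27 Polycomb genes and 16 of 16 Trithorax genes had one in replicate 3. The mean difference then became −22.8 points (exact permutation p = 0.25, n = 3), over 1.5 times the value from the authors' assignment, which stood at −12.8. The 4 Trithorax genes added were Kmt2b, Kmt2d, Ash1l and Rbbp5. At Kmt2b the region chr7:30588730-30589593, of fold 5.50, had been assigned to Mir3569. At Kmt2d the regions of fold 4.32 and 4.02 had been assigned to Prkag1 and Gm49437, and the Prkag1 region lay at the 3′ end of Kmt2d. At Ash1l the regions of fold 3.83 and 2.55 had been assigned to Dap3, and at Rbbp5 those of fold 2.63 and 2.97 to 6030442K20Rik and Tmem81. The Tmem81 region lay past the 3′ end of Rbbp5. The Polycomb gene added was Pcgf2, whose region of fold 4.30 had been assigned to Psmb3. With all these counted, 33 of the 43 genes had a region in replicate 3, against 36.5% of all coding genes under the same rule. In replicate 2 it was 9 of 43, against 6.23%, the added genes being Rbbp4 (fold 5.23), Rbbp5 (4.66) and Setd1b (4.50). In replicate 1 it was 4 of 43, against 1.91%, and in at least 2 replicates it was 10 of 43, against 6.68%.

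Stricter limits left fewer genes. With a −log10 q of at least 5, 23 of the 43 genes had a region in replicate 3, 4 in replicate 2, 3 in replicate 1 and 5 in at least 2 replicates. The shares of all coding genes under that limit were 22.1, 2.08, 0.946 and 2.38%. With a fold of at least 5, 3 of the 43 genes had a region in at least 2 replicates, against 1.04%. With each list reduced to the 451 regions of highest −log10 q, Kmt2a and Kdm6b had one in replicate 3, 3 genes in replicate 2 and 4 in replicate 1, against 1.50, 1.49 and 1.51% of all coding genes. Of the 43 genes, 2 then had a region in at least 2 replicates, against 0.946% of all coding genes.

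Most member regions were in the authors' promoter class, which counts the start of any transcript. In replicate 3, 35 of 49 (71.4%) were in the class within 1 kb, against 62.6% of all regions, while 21 of 49 came within 1 kb of the outermost RefSeq start of the gene, and all 10 regions of replicates 1 and 2 were in that class. Their median width in replicate 3 was 603 bp, against 470 bp over all regions. More than 1 summit was found in 40.8% of them, against 29.1% of all regions. All 10 regions of replicates 1 and 2 overlapped a region of another replicate by at least 1 bp (Wilson interval from 72.2%). Every one of the 4 and 6 overlapped replicate 3, where 94.7% of all regions of replicate 1 and 92.1% of all regions of replicate 2 did too. Regions outside the promoter classes were found at 4 genes (Phc2, Cbx7, Cbx8 and Kdm6b; 9.30%), against 6.07% of all coding genes. Having 2 or more regions in replicate 3 was seen at 9 genes (20.9%), against 8.07% of all coding genes. They were 7 Polycomb genes (Phc2, Aebp2, Jarid2, Cbx8, Bmi1, Cbx7 and Rbbp4) and 2 Trithorax genes (Kdm6b and Setd1b). Of these, Phc2, Kdm6b, Aebp2 and Jarid2 had 4 or more, against 1.82% of all coding genes.

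The Runx recognition core, searched in its TGTGGT form only, was found on either strand in a window of 8 of the 33 genes (24.2%). It was in 17.2% of the 17492 coding genes with a window. Within CpG-rich windows, it was in 9.94% of the genes with such a window. Here and below, shares for CpG-rich windows searched those windows only, while shares of the 33 genes searched every window. The 2 are therefore not a like comparison. Dpy30 and Pcgf2 held the core only in windows that were not CpG-rich. Of the 8 genes, 4 had a promoter-class region in replicate 3 (Jarid2, Rbbp4, Dpy30 and Wdr5) and 4 had no assigned region (Ezh2, Pcgf2, Pcgf3 and Pcgf6). The window with the core itself met a region of replicate 3 at 3 genes (Jarid2, Rbbp4 and Wdr5), and 19.3% of all windows with the core did so. At Dpy30 the region met other windows, which hold no core. The longer match TGTGGTTT was in none of the 33, against 1.92% of all. The E-box CACGTG was in windows of 8 genes (24.2%), of which Pcgf2 had it only in a window that was not CpG-rich. It was in 8.91% of all genes and, within CpG-rich windows, in 12.3% of those with such a window. Its longer form TCACGTGA, which contains CACGTG and is known from lysosomal gene promoters bound by TFEB, was in 4 genes (12.1%), against 1.41% of all and 2.27% of those with a CpG-rich window. It was found at Cbx6, Rbbp4, Phc3 and Kdm6a, and each of these had a promoter-class region in replicate 3. So did 26 of the 43 genes, and 69.8% of all windows with TCACGTGA met a region of that replicate. GC boxes were in 78.8% of the 33 genes, over every window. Within CpG-rich windows they were in 78.5% of all genes with such a window, so the 2 shares were close. The windows do not reach the whole of each region, and letters in a window are a description, not a binding site.

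Other genes of the same pathways were counted from lists of associated genes. The counts are to be read beside the 31.5, 5.17 and 1.51% of all coding genes with a region in replicates 3, 2 and 1. Of 30 other Polycomb-associated genes, 17 had a region in replicate 3, 3 in replicate 2 and 0 in replicate 1. The highest folds of replicate 3 were at Fbrs (9.44), a PRC1-associated gene, at Asxl2 (7.55), a subunit of the H2A deubiquitinase complex, and at Bcor (5.33), of variant PRC1. Fbrs, Asxl2 and Wdr82 had regions in replicates 2 and 3, and Wdr82, kept in this list as written, is also known as a subunit of the SETD1 COMPASS complexes. Of 16 other COMPASS-associated genes, 10 had a region in replicate 3, 5 in replicate 2 and 2 in replicate 1. Hcfc2, a host-cell-factor gene, had folds of 7.57, 3.71 and 6.69 in replicates 1, 2 and 3, and Pagr1a, of the KMT2C and KMT2D complexes, had 4.73, 4.21 and 5.93. Bod1l, Dot1l and Hcfc1 had regions in replicates 2 and 3, and Dot1l, kept in this list as written, is not itself a COMPASS subunit. The highest folds of replicate 3 were 6.69 at Hcfc2, 6.55 at Ogt and 6.42 at Dot1l. Of 28 SWI/SNF genes, whose remodelling complexes belong to the wider Trithorax group, 20 had a region in replicate 3, 3 in replicate 2 and 0 in replicate 1. The highest folds were 8.36 at Arid1b, 7.26 at Arid1a and 5.30 at Bcl7b. Arid1a, Smarca2 and Smarcd3 had regions in replicates 2 and 3, and the strongest Smarca2 regions of the 2 lists lay apart, at chr19:26604925-26605350 and chr19:26747648-26748320.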

How the data were processed

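Regions were called by the authors in each replicate. Per the submitters' processing notes, MACS2 2.1.2 was among the tools, with Bowtie2, Trimmomatic 0.38, Picard 2.18.26, SAMtools 1.9 and FastQC, on build GRCm38. Neither parameters nor the control library is given in the sources used here. In the deposited peak lists each summit has the authors' score, a fold (ratio) over background, and −log10 p and −log10 q values, and the lowest −log10 q was 2.00 to 2.01. The deposited annotated tables give each region 1 gene, a class and a distance to a start.

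A region took the fold of its strongest summit. The stacked fragments were solved from the fold and the −log10 p (every summit matched within 0.001, and 100% of 1999 simulated summits were recovered), and gave exact 95% Poisson intervals that cover counting error only. Total depth is unknown; relative depth is the lowest background per base of the narrowest region, as a ratio to replicate 1. Gene symbols were matched to RefSeq coding genes (98.8 to 99.7% of symbols). The differences between the groups were tested by an exact sign-flip permutation over the 3 replicates, and shares have 95% Wilson intervals. The labels do not say whether replicates shared animals, so p-values measure only the spread between these samples, which may be technical. Starts are 1-based. Analyses used scipy 1.17.1, pandas 2.3.3, numpy 2.4.6 and matplotlib 3.10.9 under Python 3.11.15.

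The members, lists, motifs and tests were chosen with earlier results of these data known. All 43 genes may be named; described in full are those with regions in at least 2 replicates, the 8 with the highest fold and the 4 with the most regions in replicate 3. Of the other lists, genes in at least 2 replicates and the 3 highest folds of replicate 3 are named. Alternatives were a q limit, a fold limit, equal numbers of regions, assignment by gene body, other overlap rules, another motif and leaving out each replicate.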

Additional observations from a re-analysis of the deposited data

How the results depend on the processing

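Of 58 alternative values, 46 were counted as unchanged, 12 as moved and 0 as reversed in sign. Differences between the groups counted as unchanged if they kept their sign, whatever their size or p. Share differences of −22.8 and −4.71 points, against −12.8, were thus both unchanged. For counts and median folds the limit was 1.5 times or 1 SD. The overlap shares counted as unchanged lay within the Wilson interval of the main value, from 72.2%, and those counted as moved lay below it. With equal numbers of regions the share difference within replicate 2 did turn, at 7.41% of Polycomb and 6.25% of Trithorax genes, while its mean over replicates was −8.80 points. With a fold of at least 5, genes with a region numbered 3 in at least 2 replicates, 2 in replicate 2 and 10 in replicate 3, against 7, 6 and 28 without that limit. The shares of all coding genes with the limit were 1.04, 0.882 and 8.50%. With the lists cut to equal numbers of 451 regions, they numbered 2, 3 and 2, the last being Kdm6b and Kmt2a, against backgrounds of 0.946, 1.49 and 1.50% of all coding genes. Leaving out 1 replicate gave 3 to 6 genes in at least 2 replicates, with 6 without replicate 1, 4 without replicate 2 and 3 without replicate 3. Where replicate 1 remained, the count could not exceed the 4 genes of its list. Shares of all coding genes were not computed for these counts. The share of member regions of replicates 1 and 2 that overlapped a region of replicate 3 was 100% by 1 bp. It was 20% (2 of 10) when 50% of both regions had to be shared, and 28.6% (2 of 7) with equal numbers. Overlap between replicates 1 and 2 was not counted here, and the cause was not tested. Shares of all regions under these stricter rules were not computed, so the values do not set the member regions apart from other regions. Genes with a Runx core numbered 0 with TGTGGTTT and 4 among those with a promoter region in replicate 3, where fewer genes are searched. The Polycomb minus Trithorax share difference ranged from −22.8 to −4.71 points over the alternatives, with exact permutation p from 0.25 to 0.5. With 1 replicate left out the permutation p was 0.5 each time, the smallest that 2 replicates allow. With 3 replicates it was 0.25, the smallest possible, except for 0.5 with equal numbers of regions. No paired analysis was possible because there is 1 group of samples. A gene with no region is not shown to lack binding in these libraries.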

Other observations

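Over all 21263 promoter windows of coding genes, the share that met a region differed by the letters in the window. Windows with TCACGTGA met a region of replicate 1 in 21.0% of cases, of replicate 2 in 23.7% and of replicate 3 in 69.8%, against 1.20, 3.48 and 26.5% of all windows. Windows with the Runx core TGTGGT met one in 0.848, 2.36 and 19.3% of cases, and CpG-rich windows in 2.36, 6.41 and 47.3%. The windows with TGTGGT were thus below all windows in each replicate, and other forms of the core were not searched. Of the 3183 windows with TGTGGT, 876 were CpG-rich, against 9548 of all 21263. These are descriptions of fixed windows, and no summit sequence was searched.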
